A study of Mus musculus with 24 samples.

Results

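Abca1, Abcg1, Apoe, Msr1, Cd36 and Lrp1 carry cholesterol and other lipids out of cells, bind them in the extracellular space, or take up modified lipoproteins and debris. All 6 of the 6 listed genes were present in the table, out of 750 genes, and all 6 passed the filter on low values. They were chosen with measured values in view: Abca1 for its difference between tumours of NP1867-treated and DMSO-treated cells, and Abcg1 and Apoe for their difference between anti-PD-1 and isotype. Those values are given below as a description, with no test. The same holds for the difference between the antibody responses of Abca1, Abcg1 and Apoe, which is formed from them. P values are given only for the other pairs of gene and comparison.

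The samples were 24 tumours of CT26, a BALB/c colon carcinoma cell line, grown under the skin of BALB/c mice, which are immunocompetent hosts of the same strain. Before implantation the cells had been kept for 40 weeks with DMSO, the vehicle, or with 0.5 uM NP1867, an inhibitor of the DNA mismatch repair protein PMS2. Mice of each kind then received 4 doses, given at 5 mg/kg into the peritoneum, of anti-PD-1 (rat IgG2a, clone RMP1-14), which blocks a checkpoint receptor of T cells, or of its isotype control (rat IgG2a, clone 2A3). The 4 groups of 6 tumours were DMSO with isotype, DMSO with anti-PD-1, NP1867 with isotype and NP1867 with anti-PD-1. All tumours were taken on day 19, 24 h after the last dose, from animals near the mean tumour volume of their group, and were fixed in formalin. The labels do not say how many separate cultures of each kind were used, so the tumours of a kind may share 1 culture, and a p value speaks only for tumours of near-average volume. No genotype other than that of the line and the strain was given, and the labels give no age.

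RNA molecules were counted with NanoString nCounter probes for mouse immune genes, and every value below is a log2 normalised count. A probe's level was compared between tumours only. Where probes were combined, as in the Abca1 minus Abcg1 difference and the summed marker levels, the result was also compared between tumours only. Totals of recovered counts ran from 62699 to 687032 per tumour, and 4 tumours fell below 200000 counts, 2 DMSO tumours with isotype and 2 with anti-PD-1. The lowest count behind any value of the 6 genes was 33, for Abca1. Of the 6 carcinoma cell markers listed, Epcam, Cdh1 and Cd44 were in the table, and their summed log2 level ran from 4.76 to 7.66 over all tumours. In whole tumour tissue, fewer cells of a type and less RNA per cell cannot be told apart.

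Cells cannot break down the sterol ring, and surplus cholesterol leaves them by efflux. Abca1 moves cholesterol and phospholipid onto lipid-poor apolipoproteins, Abcg1 moves cholesterol onto formed lipoprotein particles, and Apoe, which macrophages secrete in quantity, is an acceptor and carrier of that lipid. Abca1, Abcg1 and Apoe are known targets of the liver X receptors, nuclear receptors that are switched on by oxidised sterols and bind, with the retinoid X receptor, a direct repeat of AGGTCA with a spacer of 4 bases. Msr1 and Cd36 are scavenger receptors of macrophages that take up modified lipoproteins, and Lrp1 is a large endocytic receptor that clears Apoe-bearing particles, proteases and their inhibitors.

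The liver X receptors are known to act on Abca1 and Apoe. The stretch before the start of each that comes closest to this repeat is shown, beside those of the other 2 members with a promoter entry. Promoters came from RefSeq (GRCm38.p6), where 4 of the 6 genes matched, Abca1, Apoe, Cd36 and Lrp1. The 250 bases before the start were searched on both strands for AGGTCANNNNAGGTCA, and capitals mark the 12 letters set against the repeated AGGTCA.
Abca1: agcgccgGGGTTActacCGGTCAaacgctg
Apoe: tttgccaGAGTCAgagcAGGTGGaggggtt
Cd36: caggggcGGCTCAaatcAGTTCCgttggtt
Lrp1: gggcagcGCGCCAaatcAGCGCAtgcgcac
The Abca1 window lies at chr4:53159940-53159969 on the plus strand, opposite to the gene, and its repeat runs from 67 to 52 bases before the start. It matched at 9 of the 12 letters, and 18.5% of 32851 promoters held a stretch with as few mismatches. The Apoe window at chr7:19698820-19698849 and the Cd36 window at chr5:17835963-17835992, both on the minus strand, each matched at 8 letters, a count that 70.6% of promoters reached. Apoe has 3 starts in the RefSeq table and its window is the closest match over all 3, while the other genes have 1 each. The Abca1, Apoe and Cd36 windows lie inside the annotated spans of their genes, so the starts used for these are not the outermost ones. The Lrp1 window at chr10:127621305-127621334, on the minus strand, matched at 7 letters, as 99.5% of promoters did. No stretch was a full repeat, and a match or its absence in this window is a description of letters.

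**Figure D1:**
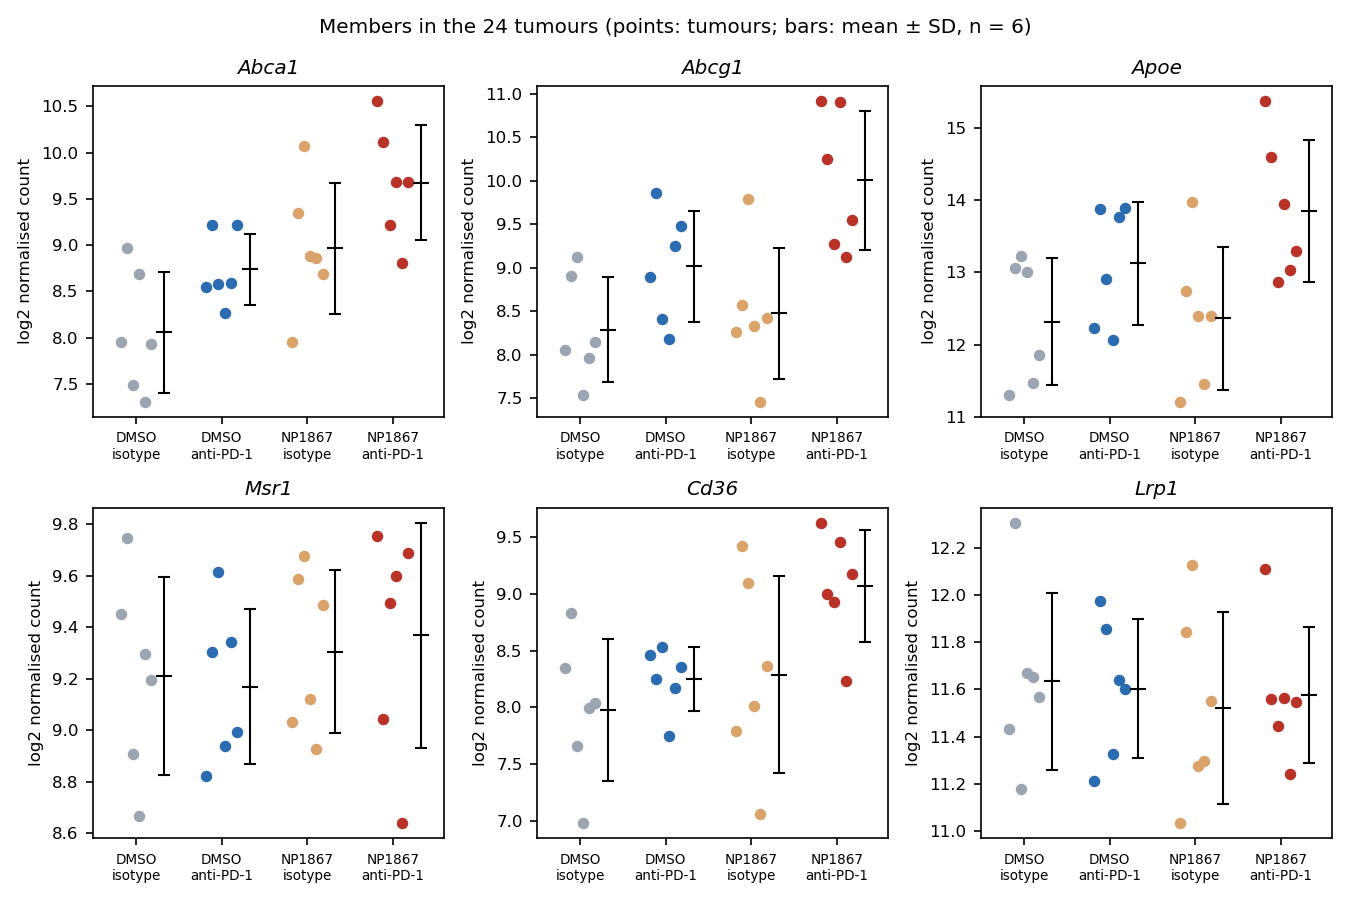
Log2 normalised count (y axes, which do not start at 0) of the 6 genes in the 24 tumours, by culture and antibody (x axes); points are tumours and bars the mean ± SD of 6. The means of Abca1 step up from group to group, Abcg1 and Apoe are highest in the NP1867 tumours under anti-PD-1, and the 4 groups of Msr1 and of Lrp1 lie over one another.

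Abca1, the transporter that starts efflux, had a lowest, median and highest log2 level of 7.31, 7.94 and 8.97 in the DMSO tumours under isotype. It ran from 8.27 through a median of 8.59 to 9.21 in the DMSO tumours under anti-PD-1. The NP1867 tumours held 7.95, 8.87 and 10.07 under isotype and 8.80, 9.68 and 10.56 under anti-PD-1. The group medians thus rank DMSO with isotype lowest and NP1867 with anti-PD-1 highest, while neighbouring groups in that order overlap. For the culture comparison that chose it, its mean was 0.91 higher on the log2 scale in NP1867 tumours under isotype (1.88-fold) and 0.94 higher under anti-PD-1 (1.91-fold). Under anti-PD-1, 5 of the 6 NP1867 tumours lay above every DMSO tumour, and under isotype 2 of 6 did.

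Abca1 was not chosen for its response to the antibody, and on the deposited scale it was higher under anti-PD-1. Averaged over both cultures, it was higher under anti-PD-1 by 0.69 on the log2 scale (SE 0.23, 95% interval 0.22 to 1.17, 1.62-fold, limma adjusted p = 0.0302). It was the 1 gene called of the 4 that this comparison did not choose, where 29.3% of the 600 genes tested were called. The call therefore does not set these members apart from the panel. The rise was 0.68 (SE 0.33) in DMSO and 0.71 (SE 0.33) in NP1867 tumours. The difference of 0.03 between them is also that between the culture values that chose Abca1, so it has no test. The rise passed in neither culture alone (limma adjusted p = 0.346 and 0.129). Of the treated tumours, 6 of 6 DMSO and 5 of 6 NP1867 ones lay above the mean of their isotype group. Without NP1867 isotype tumour 47 the value in NP1867 tumours was 0.93 (limma adjusted p = 0.0292). The median gene of the panel was 0.33 higher in the same averaged comparison, and once each tumour was centred on its own median Abca1 was higher by 0.36 (limma adjusted p = 0.162). Quantile normalisation kept the call (0.48, limma adjusted p = 0.0475). It also lost the call, at 0.59 to 0.65 (limma adjusted p = 0.0521 to 0.0594), when 1 tumour was left out, which held for 6 of the 24: DMSO isotype 59, DMSO anti-PD-1 7 and 74, NP1867 isotype 10, and NP1867 anti-PD-1 78 and 30.

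Abcg1, which exports cholesterol to lipoprotein particles, had a lowest, median and highest log2 level of 7.53, 8.10 and 9.12 in DMSO tumours under isotype and 8.19, 9.08 and 9.86 under anti-PD-1. In NP1867 tumours it stood at 7.46, 8.38 and 9.80 under isotype and at 9.13, 9.90 and 10.92 under anti-PD-1. All 6 NP1867 tumours under anti-PD-1 reached or passed the highest DMSO isotype tumour, while the isotype groups of both cultures overlapped widely and differed most at the top, in NP1867 tumour 47. For the antibody comparison that chose it, it was higher by 0.73 (1.66-fold) in DMSO and by 1.53 (2.89-fold) in NP1867 tumours. The culture comparison did not choose it: NP1867 minus DMSO was 0.19 under isotype (SE 0.38, limma adjusted p = 0.907) and 0.99 under anti-PD-1 (SE 0.38, limma adjusted p = 0.278). The difference between its 2 antibody responses was 0.80 (SE 0.54), and it was 0.20 without the 4 tumours of fewer than 200000 counts. It is formed from the values that chose Abcg1, so it has no test.

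Apoe, the secreted carrier, varied most between tumours of a group, with SDs of 0.85 to 0.99. Its lowest, median and highest log2 levels were 11.30, 12.43 and 13.23 in DMSO tumours under isotype and 12.06, 13.34 and 13.90 under anti-PD-1. In NP1867 tumours they were 11.21, 12.40 and 13.98 under isotype and 12.86, 13.63 and 15.38 under anti-PD-1. The isotype medians of the cultures nearly coincided, and anti-PD-1 and isotype groups overlapped in each culture. For the antibody comparison that chose it, it was higher by 0.81 (1.75-fold) in DMSO and by 1.49 (2.81-fold) in NP1867 tumours. The difference between these responses was 0.69 (SE 0.70), and it turned to -0.22 without the 4 tumours of low count. It is formed from the values that chose Apoe, so it has no test. Between cultures, NP1867 minus DMSO was 0.05 under isotype (SE 0.50) and 0.73 under anti-PD-1 (SE 0.50), and neither passed (limma adjusted p = 0.987 and 0.484).

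The difference between the 2 efflux transporters within a tumour is given as a description. Abca1 minus Abcg1 within a tumour was 0.49 ± 0.57 (SD, n = 6) in NP1867 tumours under isotype, against -0.23 ± 0.91 in DMSO tumours under isotype, -0.28 ± 0.35 in DMSO tumours under anti-PD-1 and -0.33 ± 0.48 in NP1867 tumours under anti-PD-1. These are differences between probes of unlike efficiency, so only their change between groups can be read, and since both genes were chosen for how they differ, it has no test.

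Cd36, a scavenger receptor that also takes up long-chain fatty acids, was at its highest in the NP1867 tumours under anti-PD-1, with a lowest, median and highest log2 level of 8.23, 9.08 and 9.62. It stood at 6.98, 8.02 and 8.83 in DMSO tumours under isotype, at 7.75, 8.30 and 8.53 in DMSO tumours under anti-PD-1, and at 7.07, 8.19 and 9.42 in NP1867 tumours under isotype. Under anti-PD-1, 5 of the 6 NP1867 tumours lay above every DMSO tumour. That difference was 0.82 (SE 0.33, 95% interval 0.14 to 1.49, limma adjusted p = 0.278). Anti-PD-1 minus isotype was 0.78 in NP1867 tumours (SE 0.33, limma adjusted p = 0.103) and 0.28 in DMSO tumours (SE 0.33, limma adjusted p = 0.644), and the difference between these was 0.50 (95% interval -0.45 to 1.45, limma adjusted p = 0.995). Averaged over the cultures the antibody difference was 0.53 (SE 0.23, limma adjusted p = 0.0833), and averaged over the antibodies the culture difference was 0.57 (SE 0.23, limma adjusted p = 0.182). Cd36 therefore passed in 0 of the 7 comparisons. It passed for the antibody in NP1867 tumours, at 0.937 to 1.003 (limma adjusted p = 0.0353 to 0.0498), when NP1867 isotype tumour 26 or 47 or NP1867 anti-PD-1 tumour 50 was left out.

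Msr1, the class A scavenger receptor of macrophages, lay in a narrow band. Its lowest, median and highest log2 levels were 8.67, 9.25 and 9.75 in DMSO tumours under isotype, 8.82, 9.15 and 9.62 under anti-PD-1, 8.93, 9.30 and 9.68 in NP1867 tumours under isotype, and 8.64, 9.54 and 9.75 under anti-PD-1. The groups covered one another almost wholly. Averaged over both cultures, anti-PD-1 minus isotype was 0.01 (95% interval -0.29 to 0.31, limma adjusted p = 0.947). NP1867 minus DMSO averaged over the antibodies was 0.15 (95% interval -0.16 to 0.45, limma adjusted p = 0.553).

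Lrp1, the endocytic receptor for Apoe-bearing particles, was as even. Its lowest, median and highest log2 levels were 11.18, 11.61 and 12.31 in DMSO tumours under isotype, 11.21, 11.62 and 11.97 under anti-PD-1, 11.03, 11.42 and 12.13 in NP1867 tumours under isotype, and 11.24, 11.55 and 12.11 under anti-PD-1. No group stood apart from another. Averaged over both cultures, anti-PD-1 minus isotype was 0.01 (95% interval -0.28 to 0.31, limma adjusted p = 0.945), and NP1867 minus DMSO averaged over the antibodies was -0.07 (95% interval -0.36 to 0.22, limma adjusted p = 0.798). Relative to the median gene, which was higher under anti-PD-1, Msr1 and Lrp1 lay lower by 0.33 and 0.32 after centring (limma adjusted p = 0.138 and 0.108), so the sign of their difference depends on the scaling.

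**Figure D2:**
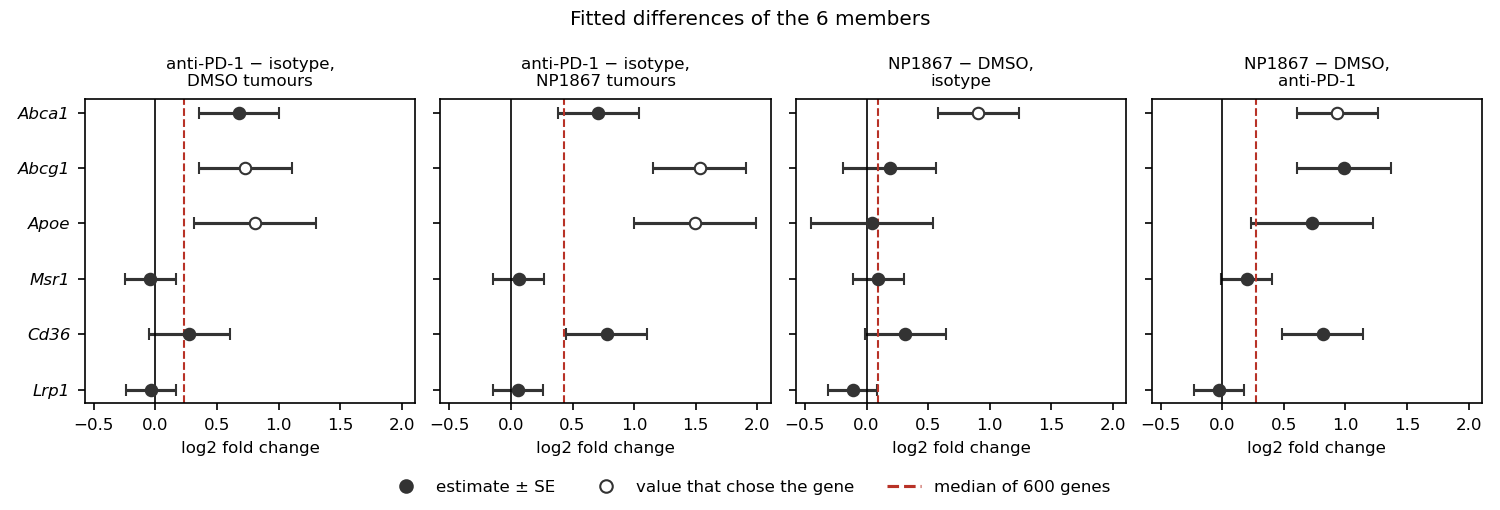
Fitted log2 fold change (x axes) of the 6 genes (y axis) in the 4 comparisons between groups; points are estimates, bars ± SE, open points the values that chose the gene, and the dashed line the median of the 600 genes tested. Abca1 lies right of the dashed line in all 4 panels, while Msr1 and Lrp1 stay within 0.2 of 0.

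Of the members not chosen by a comparison, 0 of 4 passed for the antibody in DMSO tumours, where limma called 0% of 600 genes (85 at an unadjusted p under 0.05). In NP1867 tumours 0 of 4 passed, with 12.3% of genes called. Between cultures 0 of 5 passed under isotype, with 0.167% called, and 0 of 5 under anti-PD-1, with 0% called (46 and 69 genes unadjusted). For the difference between the antibody responses, with 0% called (11 genes unadjusted), Msr1, Cd36 and Lrp1 did not pass. The other members are not counted there, because values that chose them enter it. For the culture averaged over the antibodies 0 of 5 passed, with 2% called. Limma-voom on the recovered counts also called 0 genes in the 3 comparisons with 0% and gave the same counts of members. For no member did the groups of any of the 4 simple comparisons separate fully, which 0.5%, 4.17%, 0.333% and 1.33% of the 600 genes did, in the order DMSO and NP1867 tumours for the antibody, then isotype and anti-PD-1 for the culture. The median log2 difference of the 6 members was 0.48, 0.74, 0.14 and 0.77 in that order, against 0.23, 0.43, 0.10 and 0.27 over all genes. These medians include the values for which Abca1, Abcg1 and Apoe were chosen, so nothing is read from them. These comparisons share groups with one another, so a low isotype tumour or a high NP1867 tumour under anti-PD-1 enters more than 1 of them.

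Macrophages are known to express all 6 genes. Of 17 listed macrophage markers 14 were in the table and tested, none of them had a group mean under 3 counts, and 4 rose and 0 fell under anti-PD-1 averaged over both cultures: Cd68 (0.58, limma adjusted p = 0.0310), C1qa (0.66), C1qb (0.65) and Lyz2 (0.71). That is 4 of 14, where 29.3% of all genes were called. In NP1867 tumours alone 1 of 14 rose, Mertk, by 0.74 (limma adjusted p = 0.0472), where 12.3% of all genes were called. After centring on tumour medians 0 of the 14 rose and 1 fell, the mannose receptor gene Mrc1, in both comparisons, and without the tumours under 200000 counts 10 rose in the averaged one. Their summed log2 level ran from 14.19 to 15.31 in DMSO tumours under isotype, from 14.34 to 15.63 under anti-PD-1, from 13.94 to 15.78 in NP1867 tumours under isotype and from 14.75 to 16.22 under anti-PD-1. With the mean of these markers as a covariate, the antibody difference averaged over the cultures was 0.30 for Abca1 (limma adjusted p = 0.248), 0.61 for Abcg1 and 0.48 for Apoe. With Ptprc, the leukocyte antigen CD45, as the covariate, Abca1 stood at 0.44 (limma adjusted p = 0.201). The whole panel shrank likewise. Its median went from 0.33 to 0.11 with the macrophage markers and 0.12 with Ptprc, and the genes called from 176 to 52 and 53. The part of macrophages or leukocytes in these antibody differences was not tested. Between cultures none of the 14 macrophage markers passed in the averaged comparison (0 up, 0 down, median 0.18), where 2% of all genes were called. Abca1 there was 0.92 higher in NP1867 tumours (1.89-fold), a value for which it was chosen. Nothing is read from it beside these markers, and the part of macrophages in it was not tested.

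Other cell types that express these genes were followed too. Fibroblast markers, 5 of 9 in the table, had median summed log2 levels of 11.74 and 13.56 in DMSO tumours under isotype and anti-PD-1, and of 13.20 and 13.67 in NP1867 tumours. The groups overlapped, with ranges of 10.81 to 13.87 and 11.72 to 14.63 in DMSO tumours, and of 11.61 to 15.60 and 13.03 to 16.06 in NP1867 tumours. For the antibody in DMSO tumours 0 of the 5 markers passed, where 0% of all genes were called. Of the fibroblast markers, Fap (0.93) and Thy1 (0.68) rose under anti-PD-1 averaged over both cultures. Endothelial markers, 8 of 9 in the table, had medians of 11.99, 11.72, 12.20 and 11.79 in the same order, and of them Vwf and Eng rose. The adipocyte markers Pparg and Cfd, 2 of 6 in the table, had medians of 5.42, 6.71, 5.88 and 6.18, and Cfd rose (1.68). These calls, 2 of 5 fibroblast, 2 of 8 endothelial and 1 of 2 adipocyte markers, stand beside the 29.3% called over all genes. After centring, 0 genes of these 3 lists rose and 2 fell, the endothelial genes Kdr and Cd34. Without the tumours under 200000 counts, 5 of the 5 fibroblast markers, Vwf and Eng, and both adipocyte markers rose, and Cd34 fell. The part of these cell types in the differences of the 6 genes was not tested.

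Between tumours of a group, most pairs of the 6 genes correlated on the deposited scale. With group means removed, 11 of 15 pairs correlated at an adjusted permutation p under 0.05 across 24 tumours, by Pearson's r and also by Spearman's rho. The median r of a member with 594 other genes ran from 0.29 for Msr1 to 0.51 for Abcg1. No share of passing pairs over the panel was computed. Msr1 and Cd36, the scavenger receptors, had r = 0.81 and rho = 0.82 (adjusted permutation p = 7.5e-05 and 0.0003, r = 0.74 without the 2 tumours farthest from the median of Msr1). Abcg1 and Apoe had r = 0.78 and rho = 0.78 (adjusted permutation p = 0.000262 and 0.0006, r = 0.70 without the 2 farthest). Abca1 went with Lrp1 (r = 0.81, rho = 0.70, adjusted permutation p = 7.5e-05 and 0.00165, r = 0.72 without the 2 farthest) and with Apoe (r = 0.78, rho = 0.69, adjusted permutation p = 0.000262 and 0.00198, r = 0.73). Apoe and Msr1 had the lowest r, 0.30 (rho = 0.28, adjusted permutation p = 0.196 and 0.22).

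Genes measured in 1 tumour share its tissue piece, its RNA and its scaling factor. Centred on each tumour's median, 4 pairs passed: Msr1 with Lrp1 (r = 0.75), Msr1 with Cd36 (0.68), Abcg1 with Apoe (0.57) and Abca1 with Apoe (0.55). Abca1 with Lrp1 stood at 0.63 (adjusted permutation p = 0.0718), and at 0.28 without the 2 farthest tumours. Between the receptors and the efflux genes Abcg1 and Apoe no pair passed, and Apoe with Msr1 stood at -0.29 and Abcg1 with Lrp1 at -0.07. On the deposited scale, NP1867 anti-PD-1 tumour 78 was the highest of its group for 6 of 6 genes, NP1867 isotype tumour 47 for 5 of 6, and NP1867 anti-PD-1 tumour 50 the lowest for 5 of 6.

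**Figure D3:**
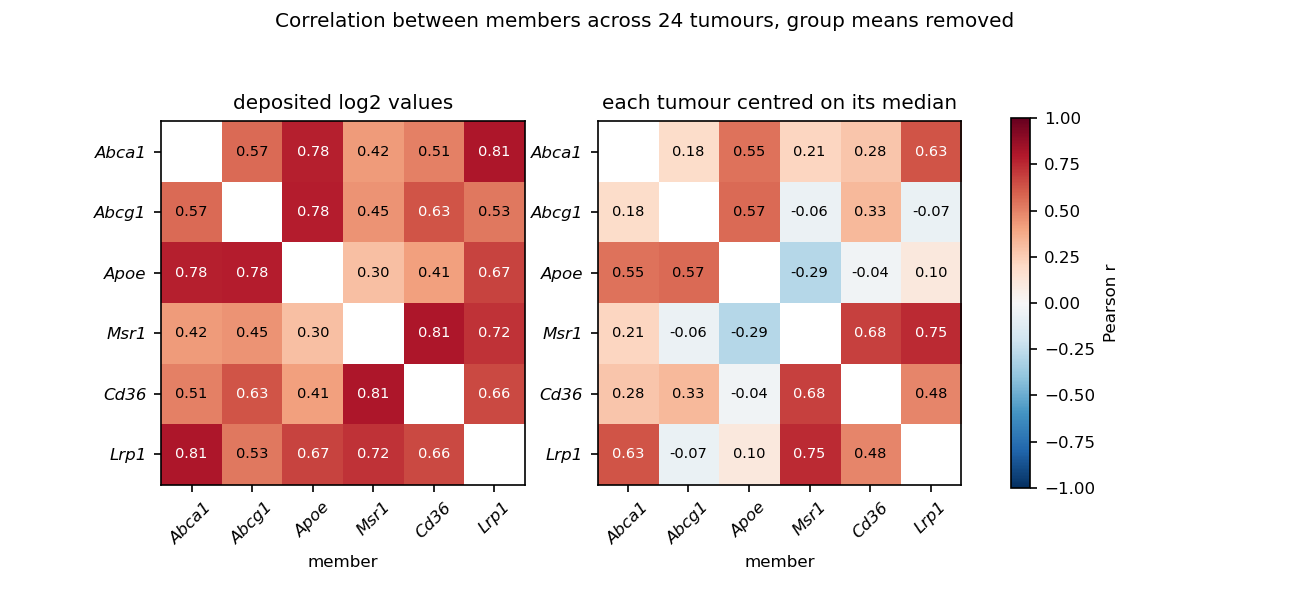
Pearson r between the 6 genes (both axes) across 24 tumours after removal of group means, on the deposited log2 values (left) and after centring each tumour on its median (right); colour and number give r. All r are above 0 on the left, from 0.30 to 0.81; on the right, the highest is 0.75 for Msr1 with Lrp1 and the lowest -0.29 for Apoe with Msr1.

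The genes outside the 6 whose pattern was closest to each member, by the same r across 24 tumours and among 594 genes, are given as a description. Closest to Apoe were Csf1r (0.92), the receptor for the macrophage growth factor CSF1, Lyz2 (0.89), the lysozyme of myeloid cells, and the collagen gene Col4a1 (0.87). Closest to Abcg1 were Cd68 (0.91), a lysosomal protein of macrophages, Il10ra (0.91), a chain of the IL-10 receptor, and H2-T23 (0.90), a non-classical class I gene. Abca1 lay nearest to Xbp1 (0.90), a factor of the unfolded protein response, Stat3 (0.86) and the lysosomal protein gene Lamp2 (0.85).

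The receptors had other neighbours. Among the 3 genes closest to Cd36 were Gbp5 (0.93) and Zbp1 (0.91), both known as interferon targets, with r of 0.90 and 0.91 after centring on tumour medians. Msr1 was closest to Klra2 (0.84), a receptor of the Ly49 family, Emr1 (0.83), which encodes a surface antigen of mouse macrophages, and the complement gene Cfb (0.80). Lrp1 was closest to Lamp2 (0.92), Nrp1 (0.92), a receptor for semaphorins and VEGF, and Xbp1 (0.92). Against these values, the median r over the 594 genes was 0.35 for Abca1, 0.51 for Abcg1, 0.45 for Apoe, 0.29 for Msr1, 0.39 for Cd36 and 0.37 for Lrp1. After centring, Csf1r, Klra2 and Nrp1 were the nearest genes of Apoe, Msr1 and Lrp1, while Xbp1 and Cd68 were at the third place for Abca1 and Abcg1. Other neighbours moved further down after centring, Col4a1 to place 27 for Apoe and Cfb to place 129 for Msr1.

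**Figure D4:**
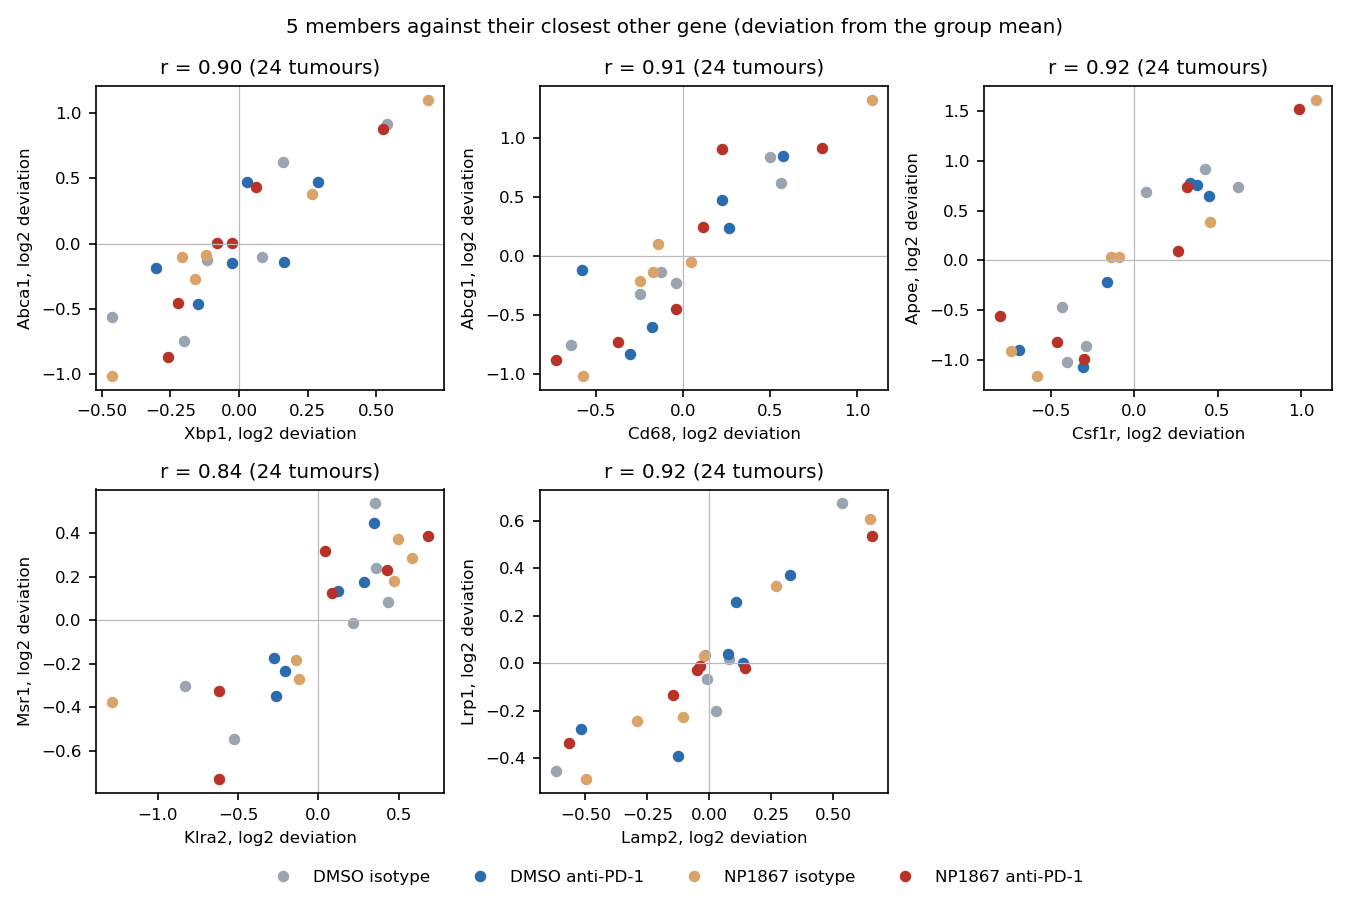
Abca1, Abcg1, Apoe, Msr1 and Lrp1 (y axes) against the closest other gene of each (x axes), both as log2 deviation from the group mean, 1 point per tumour coloured by group; r is given above each panel. The r runs from 0.84 for Msr1 to 0.92 for Apoe and Lrp1. Removing the group means places all 4 groups around the same origin, and each x gene was picked for its high r. The panels are therefore a description.

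The wider set of genes for lipid and cholesterol handling was thin in this immune panel, with 5 of 41 listed genes in the table, Pparg, Abcb1a, Clu, Trem2 and Ptgs2, all tested. Trem2, a receptor for lipids and Apoe on macrophages, rose by 0.71 with the antibody in NP1867 tumours (SE 0.23, limma adjusted p = 0.0470) and by 0.53 averaged over both cultures (limma adjusted p = 0.0241). Abcb1a, a drug efflux pump of the ABC family, fell by 0.45 in the averaged comparison (limma adjusted p = 0.0403). The list had 1 gene up and 1 down of 5 there, beside 29.3% of all genes called, and a median of -0.12 against 0.33 over all genes. In NP1867 tumours alone 1 of 5 was called, beside 12.3% of all genes. In the culture comparisons 0 of 5 passed, beside 0% to 2% of all genes. After centring, Abcb1a alone of these 5 passed.

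Of 30 other scavenger and engulfment receptors, 19 were in the table and 15 were tested. Under anti-PD-1 averaged over both cultures 4 rose and 0 fell: the integrin chain Itgb2 (0.85), the T cell scavenger receptor Cd6 (0.87), the phosphatidylserine receptor Timd4 (0.92) and Cd68 (0.58). These 4 of 15 stand beside the 29.3% called over all genes. In NP1867 tumours alone Itgb2 (1.01, limma adjusted p = 0.0184) and Mertk (0.74, limma adjusted p = 0.0472), which engulfs dying cells, rose. That is 2 of 15, beside 12.3% of all genes. Averaged over the antibodies, 2 were higher in NP1867 tumours, Itgb3 (0.91, limma adjusted p = 0.0209), an integrin chain, and the beta-glucan receptor Clec7a (0.74, limma adjusted p = 0.0316). These 2 of 15 stand beside the 2% called over all genes. The median of the list was 0.45 for the averaged antibody comparison and 0.13 for the averaged culture comparison, against 0.33 and 0.18 over all genes. After centring, the averaged antibody comparison held 1 gene up, Itgb2, and 2 down, Mrc1 and Axl, and the culture comparison 1 up, Itgb3. Without the tumours under 200000 counts 8 and 0 of the 15 were higher in these comparisons.

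Among ligands of Lrp1, Cd36 and Msr1, 19 of 30 listed genes were in the table and 17 were tested. Under anti-PD-1 averaged over both cultures 6 rose and 1 fell, beside the 29.3% called over all genes. Among those that rose were the complement genes C3 (1.35), Serping1 (1.30), C1qa (0.66) and C1qb (0.65) and the Cd36 ligand thrombospondin, Thbs1 (0.68), while Hmgb1 fell by 0.31. The list's median was 0.65 against 0.33 over all genes. In DMSO and NP1867 tumours alone 0 of the 17 passed, beside 0% and 12.3% of all genes. Between cultures 0 of the 17 passed, beside 0% to 2% of all genes. After centring, C3 and Serping1 rose, and Hmgb1 and the fibronectin gene Fn1 fell. Without the tumours under 200000 counts 12 rose and 1 fell.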

How the data were processed

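The authors deposited 1 table of log2 normalised counts for 750 genes in 24 tumours. Each tumour gave 3 sections of 10 um for RNA, of which 100 ng was hybridised, per the labels' protocols. The normalisation steps are not given in the sources used here. Every deposited log2 value (100%) equalled a whole count times 1 factor per tumour, within 0.05 of a count, with factors from 0.522 to 5.457. There were 0 columns without a sample, and no batch is named.

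A gene was tested if its mean over all tumours reached log2 of 20, which held for 600 and failed for 150. One mean per group was fitted to all 24 tumours in limma 3.58.1 (R 4.3.3) with a mean trend, leaving 20 residual degrees of freedom, and 7 comparisons were drawn from the fit. P values are two-sided and adjusted by Benjamini-Hochberg over all genes tested, with a threshold of 0.05, and SEs are those of the fitted difference. Correlations used 100000 permutations within groups (numpy 2.4.6), adjusted over 15 pairs. The smallest p these can give is 1e-05. The fit was tested on simulated data.

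The members and lists were chosen with earlier results of these data known. The genes named are the 6 members, the 3 nearest genes of each, and up to 4 genes called per list and comparison by lowest p, beyond which further ones in the text were chosen after their values were seen. Some genes that this rule names are not reported here. Alternatives were centring on tumour medians, quantile normalisation, 2 other filters, fits of the groups compared alone, robust empirical Bayes, array weights, Ptprc or macrophage markers as covariate, 10 added before the logarithm, limma-voom, and fits without low-count tumours or without each tumour in turn.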

Additional observations from a re-analysis of the deposited data

Results flagged for a closer look

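Of the 24 combinations of gene and group examined for a tumour far from the others, 1 stood out, and chance alone flags about 5% of groups. Lrp1 in the NP1867 tumours under anti-PD-1 was highest in tumour 78, at 12.11 on the log2 scale, against 11.56 in the next tumour, a gap of 0.63 of the group's range.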

How the results depend on the processing

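The call of Abca1 under anti-PD-1 averaged over both cultures is the 1 member call made. Members passing there numbered 0 after centring on tumour medians, with Ptprc as covariate and with macrophage markers as covariate, 2 with array weights and 2 without the tumours under 200000 counts (Cd36 the other), and 0 to 2 as single tumours were left out. Cd36 gained a call (limma adjusted p from 0.0333 to 0.0482) without DMSO isotype tumour 6, NP1867 isotype tumours 26 or 47, or NP1867 anti-PD-1 tumour 50. For anti-PD-1 in DMSO tumours, array weights gave 1 member (Abca1), and in NP1867 tumours 2, with 0 to 2 as single tumours were left out. In the comparisons between cultures 0 of the members not chosen by them passed under every setting. For the difference between the antibody responses Msr1, Cd36 and Lrp1 passed under no setting. Among the 15 pairs, r turned below 0 after centring on tumour medians for Abcg1 with Lrp1 (-0.069), the 1 of them that had passed, and for Abcg1 with Msr1 (-0.06), Apoe with Msr1 (-0.286) and Apoe with Cd36 (-0.036). Causes were not tested. Over all settings the panel genes passing ranged, in the order of the comparisons, from 0 to 273, 7 to 267, 0 to 13, 0 to 2, 0 to 0, 52 to 404 and 6 to 70, against 0, 74, 1, 0, 0, 176 and 12, the highest counts coming with array weights except in the fourth and the fifth. Calls under anti-PD-1 averaged over the cultures were 92% upward as deposited (162 of 176), but 35.6% after centring (52 of 146) and 40.1% after quantile normalisation (63 of 157); in NP1867 tumours alone the shares were 97.3%, 50% and 43.4%, and for the averaged culture comparison 58.3%, 30% and 31.2%. The low-count tumours lie in the DMSO groups only, and without them the antibody difference in DMSO tumours was 1.33 for Abcg1 and 1.71 for Apoe. No paired analysis was made, because the labels name no pairs of tumours, and a number shared by groups was not taken as a pair.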
